A study of Zea mays with 64 samples.

Results

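The endosperm libraries of family NE73 are described here, 7 of the 64 libraries in a study of Mu transposon insertions in maize, and set against the 23 progeny endosperm libraries of families NE71, NE72 and NE74. Members were taken by the family and tissue in the sample titles. NE73 was singled out because its endosperm values stood apart: a low share of counts at low-level sites, few sites with a single count, and its number and level of high-level insertions. Those endosperm values are therefore given as a description and without a test. The leaf libraries of the same plants were not used in that choice, and their low-level measures are the ones tested. Earlier results of these data on leaf by family were known, however, so the leaf tests were not set up blind.

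All plants were maize of the inbred line W22. NE73 (7 plants), NE71 (8), NE72 (7) and NE74 (8) each came from bulk pollen of 1 Mu-active father on ears of a Mu-inactive W22 line, so all 30 progeny carry a Mu-inactive mother's chromosomes. A chip of each kernel gave the endosperm library, and the first leaf of the seedling from that kernel, cut 10 to 13 days after sowing, gave the leaf library. Each father was represented by 1 endosperm library. The plants of a family share a father, so the units compared are plants of 1 family against plants of 3 others. With families as units, 1 against 3, the smallest p possible is 0.25.

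Mu elements are DNA transposons that move by cutting and pasting or by copying when their autonomous member, MuDR, is active, and they are known for a high rate of new insertions, many of them near genes. Each insertion duplicates a short stretch of host DNA, and this target site duplication marks the position. An insertion inherited through a gamete is in every cell of the tissue, whereas one that arises during development is only in the descendants of 1 cell and is rare in the DNA of the whole tissue. Endosperm, the storage tissue of the kernel, holds maternal and paternal genomes in unequal dose, with more copies from the mother.

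The deposited value is a count per insertion site and library, and a level is given in CPM, the count scaled to a library total of 1000000. A site at 1000 CPM or more is called high-level. A low-level site is one under 100 CPM, or under 1000 CPM where libraries were brought to a common depth of 5000 counts, at which 1 count is 200 CPM. The common depth was reached as the exact expectation of drawing that many counts without replacement, so no random draw was made. NE73 endosperm libraries held 9096 to 87730 counts (43963 ± 27787, SD, n = 7) and those of the other families 5457 to 105320 (42469 ± 30362, SD, n = 23). The leaf libraries held 25037 to 687094 counts and the fathers' 273277 to 610687. The smallest level that 3 counts can show was 34.2 to 329.8 CPM in NE73 endosperm, against 28.5 to 549.8 CPM in endosperm of the other families.

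Libraries that stand apart are named before the results. Plant 7 of NE74 had 16 sites at 1000 CPM or more in its endosperm that the authors' deposited list gives only for other families, against 0 in the 7 NE73 libraries and 0 in the other 22. Plant 2 of NE71 had low-level values within the NE73 range in endosperm and below it in leaf, which was seen in these data. Values without each of these plants are given beside the results they move. No pair of libraries held identical counts.

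The share of counts at low-level sites was small in every NE73 endosperm. At 5000 counts the share under 1000 CPM was 2.31% in plant 1, 1.94% in plant 2, 3.06% in plant 3, 2.32% in plant 4, 2.82% in plant 7, 4.42% in plant 8 and 4.25% in plant 9. The mean was 3.02% ± 0.971 (SD, n = 7) in NE73, against 16.4% ± 4.40 (SD, n = 23) in the other families, a difference of -13.4 percentage points. In the other families the lowest share was 3.06%, the median 16.0% and the highest 24.9%. Of those 23 libraries, 22 lay above every NE73 library and 1, plant 2 of NE71, lay inside the NE73 range. Without that plant the other families averaged 17.0% ± 3.38 (SD, n = 22) and their lowest library, plant 6 of NE74, had 12.4%. Leaving out plant 7 of NE74 gave 16.4% ± 4.50 (SD, n = 22).

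NE73 was below each of the other families when they were taken singly. The mean share at 5000 counts was 3.02% in NE73, against 14.5% ± 4.97 over the 8 plants of NE71, 20.02% ± 3.67 over the 7 of NE72 and 15.1% ± 2.38 over the 8 of NE74 (SD). The spread within NE73 was also narrow in absolute terms, 2.48 points from lowest to highest library, against 21.9 points over the other 23. Those 23 pool several families and include plant 2 of NE71. By SD, NE73 (0.971) was below each single family too, but so was its mean.

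**Figure D1:**
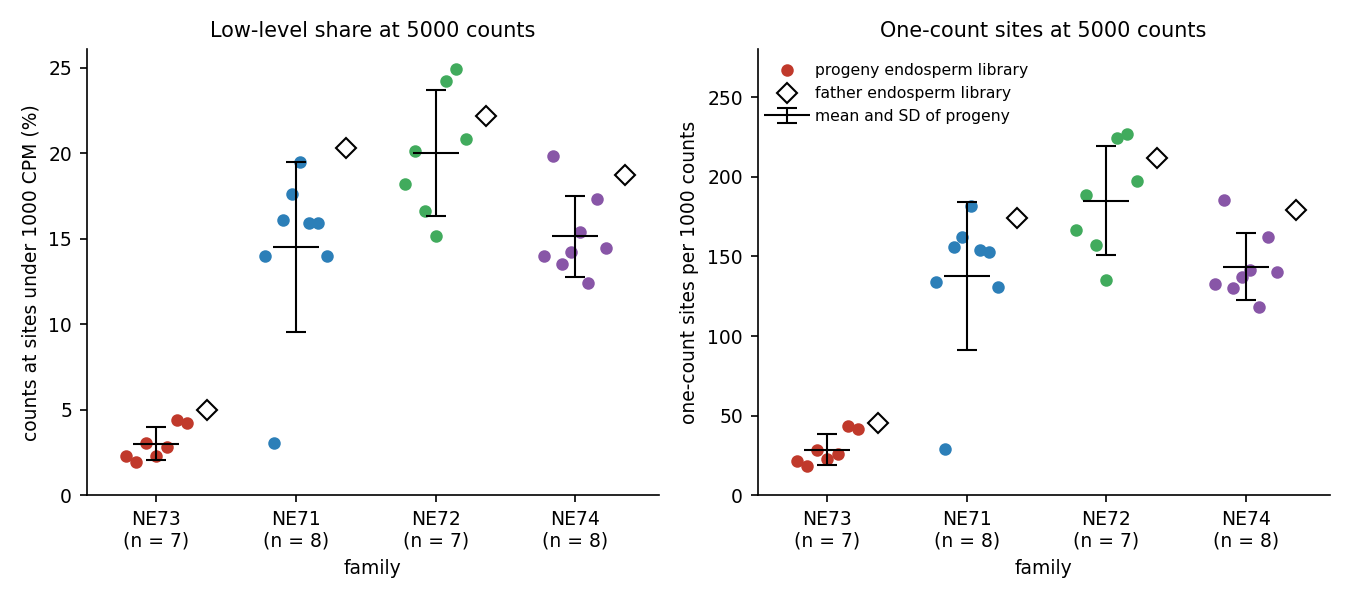
Low-level share (left: percent of counts at sites under 1000 CPM) and one-count sites (right: sites with 1 count per 1000 counts) at 5000 counts, by family. Each filled point is 1 progeny endosperm library, the bar and whiskers are the mean and SD, and the open diamond is the father's endosperm library. All 7 NE73 points lie between 1.94% and 4.42%, and the single low point of NE71 is its plant 2 at 3.06%.

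At full depth the share under 100 CPM gave the same order but was limited by depth in the shallowest libraries. It was 2.19% in plant 1 of NE73 (95% Wilson interval 2.04 to 2.34), 1.80% in plant 2, 2.75% in plant 3, 2.28% in plant 4, 4.39% in plant 8 (4.24 to 4.54) and 4.14% in plant 9. Plant 7, with 9096 counts, had 0%, because in a library under 10000 counts a single count already exceeds 100 CPM. Such intervals cover counting error at most and may be too narrow, since PCR products are not known to be independent molecules. The mean was 2.51% ± 1.48 (SD, n = 7) in NE73 and 13.1% ± 6.31 (SD, n = 23) in the other families, of which 3 were at 0% for the same reason of depth.

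At a deeper common depth of 20000 counts, which 6 NE73 libraries and 15 others reached, sites under 100 CPM are those with 1 count. They held 2.79% ± 1.07 of the counts in NE73 (SD, n = 6) and 13.3% ± 3.33 in the other families (SD, n = 15). The band from 100 to 1000 CPM held 0.278% ± 0.132 in NE73 and 2.16% ± 1.19 in the others. NE73 was thus low in both bands, and plant 2 of NE71 was again the only other library within the NE73 range in either.

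One-count sites are those seen by a single count. At 5000 counts there were 21.8 of them per 1000 counts in plant 1 of NE73, 18.1 in plant 2, 28.2 in plant 3, 22.6 in plant 4, 25.9 in plant 7, 43.4 in plant 8 and 41.3 in plant 9. The mean was 28.8 ± 9.84 (SD, n = 7) in NE73 and 154 ± 40.0 (SD, n = 23) in the other families, whose lowest library had 29.2, median 153.8 and highest 226.5. Plants 8 and 9 were the highest of NE73 in this measure and in the low-level share alike, which are closely bound because most low-level sites carry 1 count. Only plant 2 of NE71 overlapped. Without it, the lowest library outside NE73 had 118.4.

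The same difference showed in the number of distinct sites that a library yields. At 5000 counts NE73 endosperm gave 219 ± 48.6 distinct sites (SD, n = 7; 156 to 287) and the other families 892 ± 219.9 (SD, n = 23; 219 to 1312). At 20000 counts it was 647 ± 213 (SD, n = 6) in NE73 and 2932 ± 736 (SD, n = 15) in the others. Between these depths the NE73 curves kept climbing, so the number of sites in an NE73 library had no plateau at the depths reached.

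**Figure D2:**
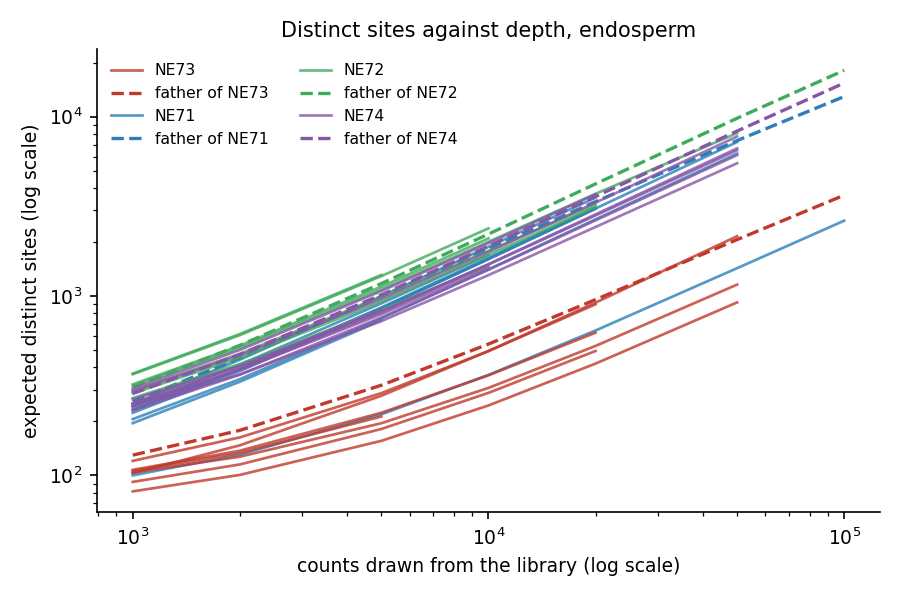
Expected number of distinct sites (vertical, log scale) against the counts drawn from an endosperm library (horizontal, log scale). Solid lines are progeny libraries and dashed lines the 4 fathers, coloured by family. The red NE73 lines lie below the other families at each depth, except for 1 NE71 line, its plant 2, which runs among them, and the father of NE73 lies near the top of its progeny.

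A share of counts depends on what the rest of the library holds, so low-level counts were also set against a common set of sites, the 29 insertions that the authors' deposited list gives for the Mu-inactive parent. Per 100 counts at those sites, NE73 endosperm had 4.75 ± 1.61 low-level counts (SD, n = 7; 2.75 to 7.42) and the other families 35.8 ± 14.2 (SD, n = 23; 4.72 to 66.9). By family the mean was 24.0 in NE71, 50.5 in NE72 and 34.7 in NE74. On this scale, too, only plant 2 of NE71 fell within the range of NE73.

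High-level insertions set NE73 apart from NE72 and NE74 but not from NE71. At 5000 counts the expected number of sites at 1000 CPM or more was 69.6 in plant 1, 62.6 in plant 2, 77.3 in plant 3, 81.0 in plant 4, 78.0 in plant 7, 59.0 in plant 8 and 78.5 in plant 9. The mean was 72.3 ± 8.67 in NE73 (SD, n = 7), against 66.6 ± 6.59 over the NE71 plants, 122.5 ± 4.67 over those of NE72 and 112.0 ± 12.2 over those of NE74 (SD). The ranges of NE73 and NE71 overlapped, whereas the lowest library of NE72 (117.2) and of NE74 (96.4) lay above the highest of NE73. Over the 23 libraries together the number was 99.4 ± 26.2, and 6 of the 23 lay within the NE73 range. Without plant 7 of NE74 it was 98.0 ± 25.9 (SD, n = 22), and the difference from NE73 was -25.7 in place of -27.1. Without that plant the mean level in the others was 9278 ± 3015 CPM.

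The mean level of these insertions ran the other way, and it is bound to their number because the CPM of a library sum to a fixed total. It was 13594 ± 1734 CPM in NE73 (SD, n = 7; 12063 to 16197), against 12933 ± 1327 CPM in NE71, 6542 ± 447 CPM in NE72 and 7654 ± 882 CPM in NE74. Plants 8 and 2, with the fewest high-level insertions in NE73, had the highest mean levels, 16197 and 15675 CPM. Number and level are therefore not separate measurements. NE73 and NE71 had similar numbers of high-level insertions. Their low-level shares were 3.02% and 14.5%, and a relation between number and share was not tested.

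**Figure D3:**
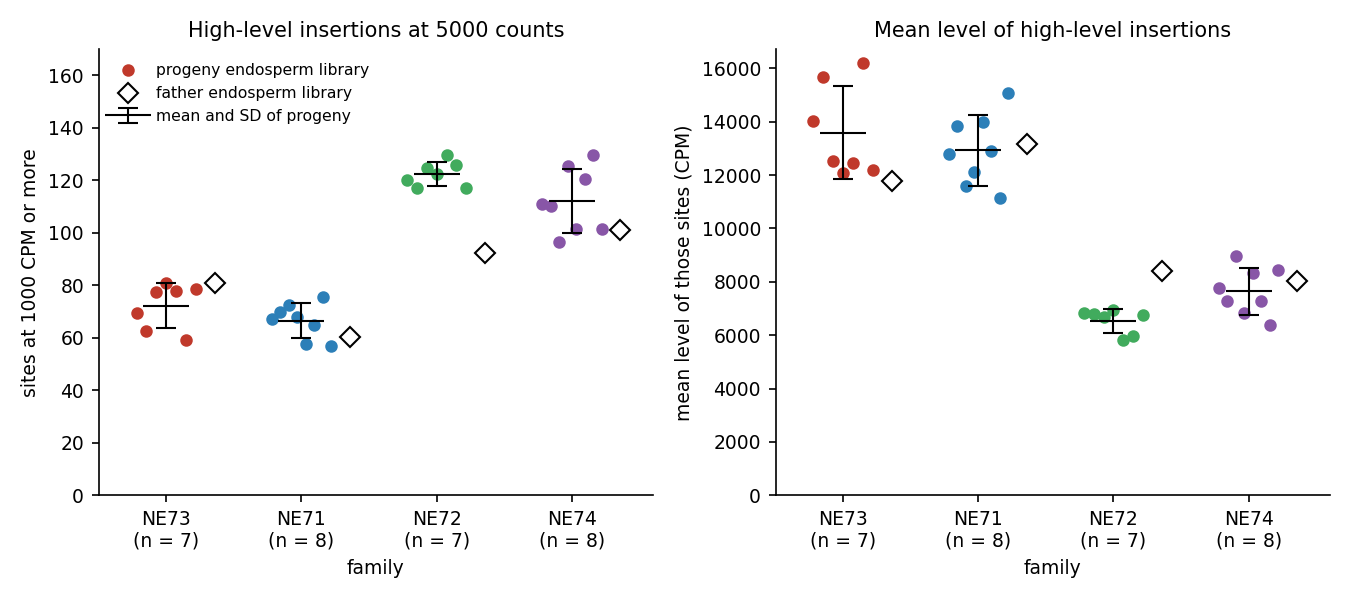
Number of sites at 1000 CPM or more (left) and their mean level in CPM (right) at 5000 counts, by family. Points are progeny endosperm libraries, bars and whiskers the mean and SD, and open diamonds the fathers. NE73 (mean 72.3 sites) lies beside NE71 (66.6) and below NE72 (122.5) and NE74 (112.0).

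The fathers' endosperm libraries give the context, with 1 library each and so no replicate. At 5000 counts the father of NE73 had a low-level share of 4.98%, against 20.3% in the father of NE71, 22.2% in that of NE72 and 18.8% in that of NE74. It had 45.6 one-count sites per 1000 counts, against 174.4, 211.7 and 179.1 in the fathers of NE71, NE72 and NE74. At full depth the share under 100 CPM was 4.67% (95% Wilson interval 4.60 to 4.74) in the father of NE73 and 17.5%, 21.6% and 18.3% in the fathers of NE71, NE72 and NE74. The father of NE73 was thus the lowest of the 4 fathers in both measures, as NE73 was the lowest of the 4 families by its mean, and it lay just above the highest of its own progeny.

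In high-level insertions the father of NE73 was not the lowest. It had 80.8 sites at 1000 CPM or more, with a mean of 11765 CPM. The fathers of NE71, NE72 and NE74 had 60.5, 92.4 and 101.0 sites. With 1 father for each family, father and family cannot be told apart.

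Each endosperm was next compared with the leaf of its own plant at 5000 counts, with sites under 1000 CPM as low-level in both. The low-level share in leaf of NE73 was 18.0% in plant 1, 17.8% in plant 2, 20.3% in plant 3, 19.0% in plant 4, 16.6% in plant 7, 19.6% in plant 8 and 14.3% in plant 9. All 7 were far above the endosperm of the same plant. The endosperm share divided by the leaf share was 0.172 ± 0.0675 in NE73 (SD, n = 7; 0.109 to 0.297) and 0.594 ± 0.110 in the other families (SD, n = 23; 0.317 to 0.800). Endosperm was below leaf in 30 of 30 plants, 7 of NE73 and 23 of the others.

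The ratio and the gap in points both contain the endosperm share, a measure by which NE73 was chosen. Low ratios in NE73 are therefore in part set by that choice. The ratios of NE73 and of the other families did not overlap, although plant 9 of NE73 at 0.297 and plant 2 of NE71 at 0.317 were close. The next ratio upward, plant 3 of NE72, was 0.421. In percentage points the gap was -14.9 ± 2.42 in NE73 and -11.2 ± 4.39 in the other families, and there the ranges overlapped. Per the labels' protocols, a column kit was used for leaves and CTAB for endosperm, so tissue and extraction method cannot be told apart. The number of high-level insertions was alike in the tissues of NE73, 72.3 ± 8.67 in endosperm and 72.9 ± 8.06 in leaf.

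**Figure D4:**
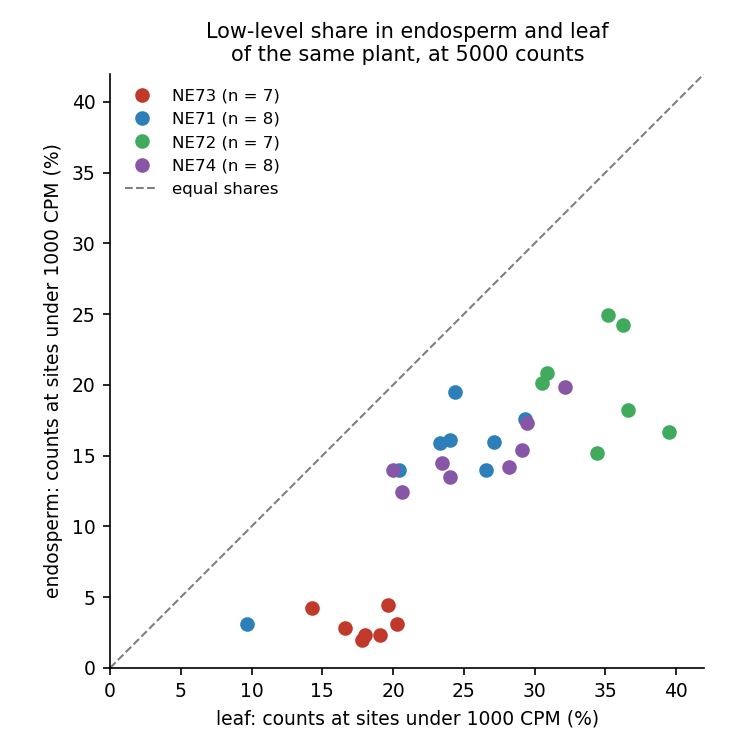
Low-level share (percent of counts at sites under 1000 CPM, at 5000 counts) in endosperm (vertical) against leaf (horizontal) of the same plant. Each point is a plant, coloured by family, and the dashed line marks equal shares. The NE73 plants lie lowest, with leaf shares from 14.3% to 20.3% and endosperm shares of at most 4.42%, while plant 2 of NE71 lies at 9.68% in leaf and 3.06% in endosperm.

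The leaf libraries were tested at a common depth of 25000 counts, at which a site under 100 CPM can be counted. The low-level share was 16.4%, 15.8%, 17.9%, 16.9%, 14.8%, 17.1% and 13.0% in plants 1, 2, 3, 4, 7, 8 and 9 of NE73, and in the other families it ran from 8.43% to 36.1%. It averaged 16.0% ± 1.65 in NE73 (SD, n = 7) and 24.4% ± 6.28 in the others (SD, n = 23), a difference of -8.39 points (two-sided exact permutation test, p = 0.00173, adjusted p = 0.00473 over 4 leaf measures). NE73 leaf lay below 20 of the 23 others. Of the remaining 3, plant 2 of NE71 was lower than any NE73 leaf and the other 2 lay within the NE73 range.

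One-count sites in leaf were 145.6 ± 15.0 per 1000 counts in NE73 and 217.9 ± 56.6 in the others, a difference of -72.3 (exact permutation test, p = 0.00254, adjusted p = 0.00473). At full depth this difference was -11.4 and did not pass (exact permutation test, adjusted p = 0.560). At 100000 counts, which 4 NE73 libraries and 21 others reached, neither the share (-7.85 points, exact permutation test, adjusted p = 0.0510) nor the one-count sites (-48.6, adjusted p = 0.0592 by the same exact test) passed, and neither did without the 29 sites of the Mu-inactive parent (exact permutation test, adjusted p = 0.115 each). The p-values treat plants as units. The spread behind them mixes differences between plants that share a father with differences between the other families, so they do not compare families.

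Family by family, the low-level share in NE73 leaf differed from that in NE72 and NE74 and not detectably from that in NE71. Against NE72, the low-level share was 16.0% in NE73 and 31.2% ± 3.35 in NE72 (exact permutation test, adjusted p = 0.00117 over 12 pairs of a family and a measure). Against NE74 it was 16.0% in NE73 and 22.98% ± 3.94 in NE74 (adjusted p = 0.00140, same exact permutation test). Against NE71 it was 16.0% in NE73 and 19.9% ± 5.24 in NE71 (adjusted p = 0.112, same exact permutation test), so this difference did not pass the threshold. With plant 2 of NE71 left out, a choice made after its values were seen, NE71 had 21.5% ± 2.68 and the difference of -5.50 points passed (exact permutation test, adjusted p = 0.00155).

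High-level insertions in leaf are mostly the same inherited sites as in endosperm, whose number and level served to choose NE73, so their leaf values are a description and carry no test. At 25000 counts NE73 leaf had 72.1 ± 8.20 of them (SD, n = 7), against 67.8 ± 6.43 in NE71, 120.0 ± 4.71 in NE72 and 107.7 ± 10.5 in NE74. Their mean level was 11494 ± 1301 CPM in NE73 leaf, against 11397 ± 1397 CPM in NE71, 5436 ± 427 CPM in NE72 and 6920 ± 772 CPM in NE74. The means of the families had the same order as in endosperm, and NE73 and NE71 overlapped.

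The high-level insertions were then divided by the authors' deposited list, which calls 1058 insertions for each plant, father and the Mu-inactive parent. Between 56 and 78 listed insertions were called in an NE73 plant, and they held 96.1% ± 1.04 of the endosperm counts (SD, n = 7; 94.8 to 97.3). In the other families the called insertions held 82.5% ± 4.53 (SD, n = 23; 74.7 to 96.3). The list was made from the same libraries, and its calls do not separate leaf from endosperm.

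Insertions of the Mu-inactive parent made up most of the NE73 counts. The list gives all 29 for each of the 4 fathers too, so they are not particular to the mother, and they held 51.8% of the counts of the father of NE73 and 31.96% to 44.6% in the other 3 fathers. All 29 were called in each NE73 plant, at a mean of 22126 ± 1825 CPM (SD, n = 7 libraries), against 16883 ± 3374 CPM in the other families (SD, n = 23). They held 64.2% ± 5.29 of the counts in NE73, against 61.1% ± 3.22 in NE71, 40.2% ± 3.04 in NE72 and 44.1% ± 4.02 in NE74. The 3 with the highest mean in NE73 were chr9:94045110-94046981 at 29681 ± 4702 CPM, chr2:142959280-142961386 at 29321 ± 1885 CPM and chr1:20953342-20955151 at 29208 ± 3299 CPM. In the other families the same sites had 20556 ± 6707, 26317 ± 5572 and 18331 ± 5947 CPM. Of the 29, 9 spanned 9 bp and 20 were wider, with a median span of 1831.5 bp among the wider ones. The genome build is not given in the sources used here, and no gene annotation was set against these positions.

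Insertions of the father of NE73 segregated among its progeny. The deposited list is one of transmitted insertions with criteria not given, so a father insertion passed to no plant may be absent from it. The list gave 51 insertions of this father that were not of the Mu-inactive parent. Each was called in at least 1 NE73 plant, 3 of them in all 7 plants and 3 in only 1. A plant carried 29.3 ± 6.21 of them (SD, n = 7; 24 to 41) at a mean of 8186 ± 611 CPM, and plant 9 carried the most. In the other families a plant carried 30.8 ± 12.9 of its own father's (SD, n = 23) at 5497 ± 1038 CPM.

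Their level was also taken relative to the 29 insertions that the fathers share with the Mu-inactive parent. The mean level of the father's other insertions divided by that of these 29 was 0.371 ± 0.0248 in NE73 endosperm (SD, n = 7) and 0.525 ± 0.0583 in NE73 leaf (SD, n = 7). In the other families it was 0.328 ± 0.0350 in endosperm and 0.510 ± 0.0459 in leaf (SD, n = 23 each). The NE73 endosperm ratios, 0.353 to 0.426, overlapped those of the other families, 0.272 to 0.383, with plant 9 of NE73 the highest of all.

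The 3 father insertions with the highest mean in the NE73 plants called for them are given by plant. The site chr7:176807341-176807349 had 13033, 13846, 10487, 13680 and 10044 CPM in endosperm of plants 1, 2, 4, 8 and 9, and 0 counts in plants 3 and 7. It had 12127 CPM in the father of NE73 and was also in the father of NE74, at 10683 CPM, while the fathers of NE71 and NE72 had 0 counts. The site chr7:25221853-25221861 had 10405, 10215, 10874, 12880 and 11426 CPM in plants 1, 3, 4, 8 and 9, with 0 counts in plants 2 and 7. Its level was 9692 CPM in the father of NE73, 8057 CPM in that of NE72 and 8469 CPM in that of NE74. Plants listed as carriers and the rest were separated completely at both sites, in endosperm as in leaf. The calls were made from these same libraries, so this separation adds no support to them.

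The third, chr1:259992024-259992032, had 10969, 9732 and 10597 CPM in plants 2, 3 and 9 of NE73 and 0 counts in the other 4 plants. It had 11919 CPM in the father of NE73 and 0 counts in all 23 endosperm libraries of the other families. The fathers of NE72 and NE74 had 6 and 2 counts there.

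Insertions listed for neither parent were few in NE73. The list gave 81 over the 7 plants, and each was called in 1 plant only, by criteria not given in the sources used here. A plant had 11.6 ± 5.77 of them (SD, n = 7): 14 in plant 1, 7 in plant 2, 17 in plants 3 and 4, 16 in plant 7, 3 in plant 8 and 7 in plant 9. The other families had 36.1 ± 16.6 (SD, n = 23), with 19.1 ± 7.77 in NE71, 55.3 ± 6.40 in NE72 and 36.4 ± 8.85 in NE74. Plants 8 and 9, with the highest low-level shares of NE73, had 3 and 7 of these insertions. Plant 2, with the lowest share, also had 7, and plants 3 and 4 had the most.

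Of these 81, 76 were at 1000 CPM or more in the plant's endosperm. Their mean level in NE73 endosperm was 6907 ± 1101 CPM (SD, n = 7), or 0.847 ± 0.146 of the father's insertions, against 5397 ± 1503 CPM and 0.974 ± 0.124 in the other families (SD, n = 23). The highest was chr5:878129-878137, with 14732 CPM in endosperm and 18833 CPM in leaf of plant 7 and 0 counts in endosperm and leaf of the other 6 NE73 plants. Next came chr4:250673712-250673720, with 11434 CPM in endosperm and 8497 CPM in leaf of plant 7, and 2 counts in leaf of each of plants 3 and 8. This site had counts in 18 libraries of the series, among them 1 endosperm library of the other families, at 23.5 CPM. The third was chr10:141524754-141524762, with 11410 CPM in endosperm and 11307 CPM in leaf of plant 2. All 4 fathers had 0 counts at these 3 sites.

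**Figure D5:**
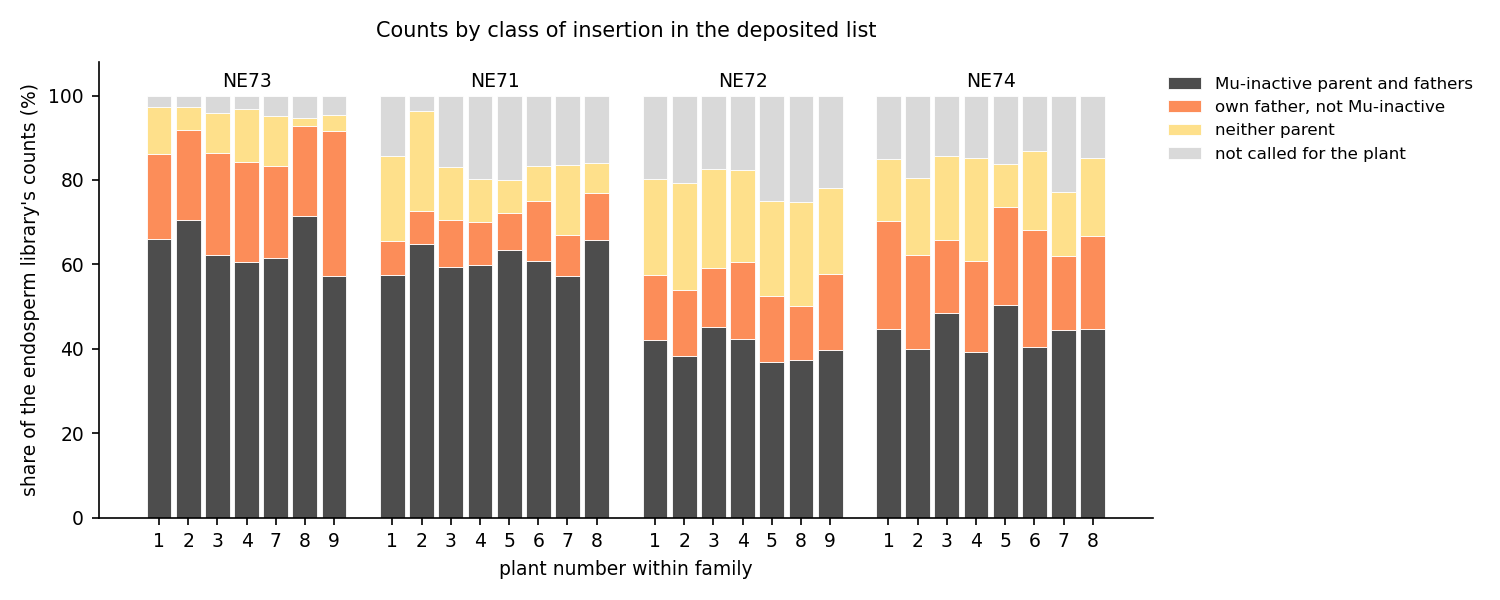
Share of each progeny endosperm library's counts (vertical, percent) by class in the authors' deposited list: insertions of the Mu-inactive parent (also listed for all 4 fathers), of the own father and not the Mu-inactive parent, of neither parent, and sites not called for the plant. Each bar is 1 library, grouped by family, with the plant number beneath. The pale top segment, sites not called, is thin in all 7 NE73 bars and in plant 2 of NE71.

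High-level insertions were shared between the tissues of an NE73 plant almost without exception. Summed over the 7 plants, 505 sites were high-level in endosperm and 504 in leaf, and 496 were high-level in both. The 9 found only in endosperm all had counts in the leaf of the plant. Of the 8 found only in leaf, 4 had 0 counts in endosperm, in plants 2, 3 and 8, whose endosperm libraries can show 57.5, 103.5 and 42.8 CPM with 3 counts.

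A few sites outside the list were also high-level in NE73 endosperm, 2 to 4 in each library. The 3 present in all 7 libraries with the most counts were chr1:18957402-18957410, chr8:44857168-44858977 and chr8:160333759-160333767. The first had 1209, 3145, 6488, 3967, 9894, 3227 and 921 CPM in plants 1, 2, 3, 4, 7, 8 and 9, with the highest value in the shallowest library, plant 7. Their means were 4122 ± 3147, 2871 ± 1445 and 2295 ± 161 CPM in NE73 (SD, n = 7), against 2233 ± 1759, 3527 ± 2351 and 2042 ± 955 CPM in the other families (SD, n = 23). These sites were counted in 23, 23 and 22 of the 23 other endosperm libraries and in all 4 fathers, so they are not particular to NE73.

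The low-level sites of NE73 were next described beside those of the other families. Their number, their counts per library and the counts each carried are bound to the measures that chose NE73. The other features given were not used in that choice. Under 1000 CPM at full depth there were 8293 sites summed over the 7 NE73 libraries and 123479 over the other 23. They carried 1.11 ± 0.0460 counts each in NE73 and 1.14 ± 0.0720 in the others. Sites in no other library held 53.6% ± 2.30 of the low-level counts in NE73 (51.0 to 57.2) and 55.0% ± 2.21 in the others (51.5 to 60.9). Nearly all spanned 9 bp, the length of a Mu target site duplication: 99.9% in NE73 and 99.96% in the others. Of all 1091553 sites of the series, 1091491 did so too, so this is not particular to low-level sites. The spread of the low-level sites over the 10 chromosomes differed by at most 1.28 points, on chromosome 1, with 16.0% in NE73 and 17.2% in the others.

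Several other features differed in size, each resting on few counts per library. Low-level counts within 1000 bp of a high-level site of the same library were 2.50% ± 1.73 in NE73 and 3.77% ± 1.07 in the others. Sites counted in 32 or more libraries held 1.79% ± 0.840 of the low-level counts in NE73 and 0.868% ± 0.475 in the others. NE73 libraries held 1305 ± 948 low-level counts each and the others 6296 ± 4308. Sites that were high-level only in another family held 0.327% ± 0.426 in NE73 and 0.191% ± 0.198 in the others. Sites that were high-level in another library of the own family held 1.73% ± 1.20 in NE73 and 0.726% ± 0.482 in the others, and sites of the authors' deposited list held 1.93% ± 2.19 in NE73 and 0.661% ± 0.614 in the others. The ranges overlapped in each of these features.

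Low-level sites were also looked for in the plant's own leaf library and in that of its father. Of the low-level counts, 7.19% ± 2.80 lay at sites also counted in the own leaf in NE73 and 9.32% ± 3.69 in the others, whose leaf libraries were deeper (143402 ± 106494 counts in NE73 and 306235 ± 159533 in the others). Per 10000 sites of the leaf library the order turned, with 5.52% ± 3.95 in NE73 (2.40 to 11.6) and 2.24% ± 1.05 in the others (1.39 to 5.45). The highest NE73 values, 11.6% and 10.8%, were in plants 2 and 9, with the smallest NE73 leaf libraries (45813 and 38627 counts). Plant 8 of NE72, with 25037 leaf counts, had 5.33%, although plant 2 of NE71 had 5.45% with 235119. The order on this scale therefore cannot be told apart from leaf depth. With the leaves of other plants of the family, the median match per 10000 sites was 2.66% ± 0.424 in NE73 and 1.63% ± 0.272 in the others. In the own father's library the shares were 3.67% ± 0.946 in NE73 and 8.89% ± 2.85 in the others. The father of NE73 offered fewer sites to match, 10356, against 27322, 77049 and 66058 in the fathers of NE71, NE72 and NE74. Per 10000 sites of the father, the match in NE73 was 3.54% ± 0.913 with the own father and 1.61% ± 0.145 with the other fathers. In the other families it was 1.67% ± 0.298 with the own father and 1.74% ± 0.296 with the other fathers, among them the father of NE73. Such rates come from father libraries of unlike size, so a closer match of NE73 with its own father cannot be read from them.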

How the data were processed

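Insertion sites were mapped in 64 libraries by PCR next to Mu ends, per the labels' protocols. The deposited table holds raw counts for 1091553 sites. Bowtie2 was used, per the submitters' processing notes. Its version, the genome build and whether reads or molecules were counted are not given in the sources used here. The authors' deposited list holds calls of 0 or 1 for 1058 insertions.

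CPM and all measures were computed in Python 3.11.15 (numpy 2.4.6, pandas 2.3.3, scipy 1.17.1). Common depths were 5000 and 20000 counts in endosperm and 25000 in leaf. The calculations were tested on simulated data. Leaf was tested by two-sided exact permutation, with Benjamini-Hochberg adjustment over 4 measures and over 12 pairs. The 4 measures include the number and level of high-level insertions, whose p-values are not given because leaf and endosperm share those sites. The members, measures and site lists were chosen with earlier results of these data known, those on leaf by family included. Sites named are the 3 highest of each listed class in NE73, and the 3 unlisted sites found in the most NE73 libraries, ties by summed count. Counts at high-level sites were even in 66.7% ± 4.57 of cases in NE73 endosperm (SD, n = 7) and 64.8% ± 4.57 in the others (SD, n = 23). Single counts there are thus not independent. The Wilson intervals and the draw to a common depth both treat counts as independent, so the intervals may be too narrow. Plant numbers are shared between families but do not pair plants: a plant matched its own number best in 3 of 18 cases. Alternatives were other depths, thresholds, site definitions and left-out families or plants. No reference known to be of the build used was at hand, so no gene names or sequences are given. Of the columns of counts, 0 were left unused.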

Additional observations from a re-analysis of the deposited data

Results flagged for a closer look

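Plant 2 of NE71 stood far below the other 7 plants of its family in endosperm, by the gap to its nearest neighbour divided by the range of the family. Its low-level share at 5000 counts was 3.06%, against 13.98% to 19.5% in the others of NE71, and it had 29.2 one-count sites per 1000 counts, against 130.8 to 181.9. Both values fell within the NE73 range. Its leaf library was the lowest of all leaf libraries in low-level share, at 8.43% at 25000 counts, and its endosperm library was the deepest of the 30 progeny endosperm libraries, with 105320 counts. Of 36 sets of values examined, 2 stood out, where chance gives about 1.8. The cause was not tested.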

How the results depend on the processing

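Of 170 alternatives, 150 kept the direction and size or the side of the threshold, and 0 reversed a direction. In endosperm, leaving out NE71 changed the difference in high-level number (NE73 minus others) to -44.6 and that in mean level to 6459 CPM, and leaving out NE72 changed the number to -17.0. With 9 bp sites only, the difference in low-level share was -19.4 points, in one-count sites -177.9 per 1000 counts and in mean level 9131 CPM. Without the sites of the Mu-inactive parent these were -22.3, -202.2 and 11322 CPM. Without the 10 highest sites the mean level differed by 6049 CPM, and as a median of log2 CPM at full depth by 0.65.

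In leaf, 9 alternatives lost the call by the exact permutation test, 4 of them on high-level insertions, for which no p is given here. At 100000 counts (4 NE73 libraries against 21) the exact permutation test gave differences of -7.85 points (adjusted p = 0.0510), -48.6 one-count sites (0.0592), -27.3 high-level insertions and 3570 CPM. At full depth one-count sites differed by -11.4 (exact permutation, adjusted p = 0.560). The number differed by -15.7 without NE72 and by -20.1 without NE74. Without Mu-inactive sites the share differed by -5.45 points and one-count sites by -45.8 (0.115 each). Libraries shallower than a common depth were left out. The cause of these changes was not tested.

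Leaving out each NE73 plant in turn gave -13.6 to -13.2 points, -127.7 to -123.5 one-count sites, -28.6 to -24.9 insertions and 4008 to 4697 CPM in endosperm. In leaf it gave -8.71 to -7.89 points, -75.4 to -67.8, -27.2 to -23.7 and 3142 to 3740 CPM, with adjusted p of 0.00539 to 0.0101 for the first 2 measures. With plant number as a replicate block the endosperm differences were -13.6 points, -127.2, -30.1 and 4813 CPM, and the leaf differences -8.49 points, -72.3, -27.5 and 3734 CPM (exact permutation within numbers, adjusted p = 0.0151 for the share and for one-count sites), and the block changed no call. Depth limits what a shallow endosperm library can show under 1000 CPM, and each family has 1 father.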
